A study of Mus musculus with 2 samples.

Results

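Cluster 2 is a population of excitatory neurons of the mouse medial prefrontal cortex whose marker genes include Hs3st4, Foxp2 and Tle4, genes of deep cortical layer 6. It was taken as the authors numbered it, by its own column in their table of mean expression per cluster. It held 1184 of 12739 nuclei (9.29%) and was the third largest of 23 clusters. The column pools nuclei of 2 libraries, so each value below is a mean over nuclei of both genotypes.

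Both libraries came from male mice under 12 h of light and 12 h of dark, killed at zeitgeber time 20, that is 20 h after lights on. The first group was labelled as knockout for Npas2, which encodes a transcription factor of the circadian clock, and the second as wild-type littermates. Tissue of 4 mice was pooled for each genotype before nuclei were isolated, which gave 1 library per genotype. The sources used here give neither the knockout allele nor the strain or age. The study asked about NPAS2 in relation to dopamine synthesis and naps. Over all nuclei, the Npas2 signal of the library labelled knockout was 1.39, and that of the library labelled wild-type was 1.29. A 3′ tag outside a deleted part checks nothing, so the libraries are named by their labels throughout.

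Layer 6 is the deepest layer of the neocortex. Many of its excitatory neurons send axons to the thalamus and are called corticothalamic neurons, and Foxp2, Tle4 and Hs3st4 are widely used to mark them. A thinner band beneath them, layer 6b, holds neurons that persist from the developmental subplate and are marked by genes such as Ctgf and Cplx3.

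A value is the mean, over the nuclei of a cluster, of what a gene contributed to each nucleus once the nucleus was scaled to a total of 10000, here called the signal. Cluster 2 nuclei had an estimated mean depth of 3549 UMIs (unique molecular identifiers, 1 per captured molecule), rank 10 of the 23 clusters, which makes about 4201799 UMIs in all. In this cluster 3 UMIs correspond to a signal of 0.00714, and 18720 genes had a signal above 0. Ranges in parentheses are 95% counting intervals on estimated UMI numbers. They cover counting error only, because nuclei are not replicates, and no difference below has a replicate check or a test. Genes were compared where the mean of both sides was at least 0.05, called the floor, and log2 ratios were taken after adding 0.01 to each side.

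The 6 genes used to mark the cluster behaved as its label says, with differences in how widely each was shared. They were chosen for this cluster, so their values are a description. Hs3st4, which encodes an enzyme that adds 3-O-sulfate to heparan sulfate chains, was at 28.3 (27.8 to 28.9) in cluster 2 and at 2.98 over the other 22 clusters. Among those, it ran from 0 through a median of 1.66 to 27.3 in cluster 16. The level in cluster 16 therefore lay just under that of cluster 2, and the fold between them was 1.04 (0.993 to 1.09).

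Zfpm2, a zinc finger cofactor of GATA factors, was at 14.6 (14.2 to 15) against 1.5 in the other clusters, with a median of 1.25 and a highest value of 13 in cluster 21. Tle4, a Groucho-type corepressor, was at 9.25 (8.93 to 9.57) against 1.74, with 9.11 in cluster 16 and 9.01 in cluster 15. Both genes were thus highest in cluster 2, and Tle4 was within counting error of cluster 16 with a fold of 1.02 (0.94 to 1.1). Garnl3, which encodes a protein with a Rap GTPase-activating-like domain, was at 8.32 (8.02 to 8.63) against 1.67, and no cluster other than cluster 21 (6.84) was above 3.45. It was the marker that separated the layer 6 clusters, at 5.41-fold (4.55 to 6.49) over cluster 16, where it was at 1.54.

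Foxp2, a forkhead transcription factor, was at 7.42 (7.14 to 7.71) against 1.38, but cluster 6 reached 8.40 and cluster 10 reached 5.59. Cluster 6 had the highest summed level of striatal spiny projection neuron genes, so Foxp2 alone did not single out cluster 2. Col12a1, a fibril-associated collagen, was at 2.01 (1.86 to 2.16) against 0.208, with 2.79 in cluster 15 and 1.29 in cluster 16. Summed over the 6 markers, cluster 2 stood at 69.9 and the other clusters between 3.15 and 61.8. The highest of these was cluster 21 with 37 nuclei, followed by cluster 16 at 54.6.

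**Figure D1:**
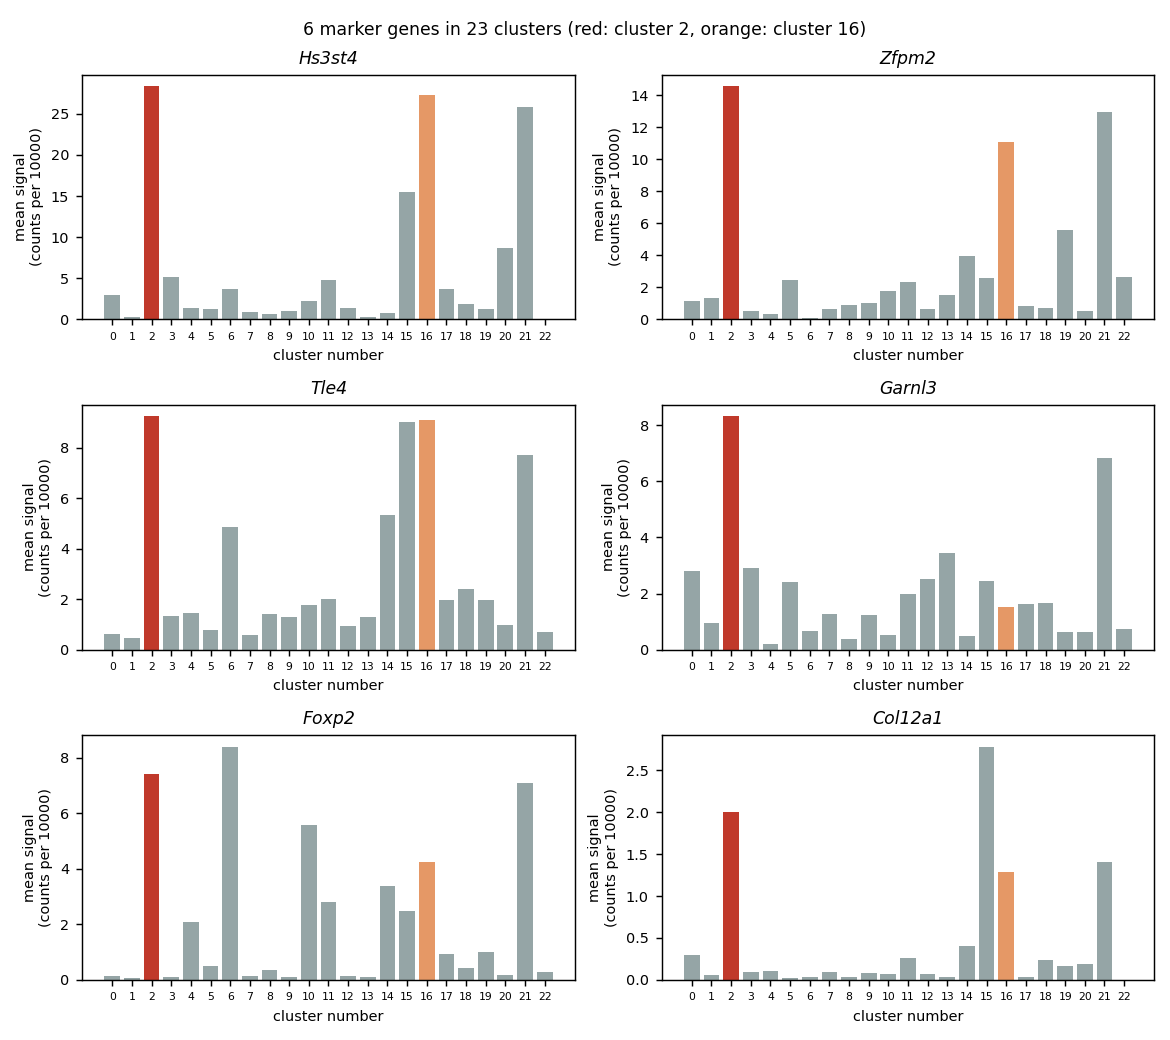
Mean signal in counts per 10000 (vertical axis) of the 6 marker genes in each of the 23 clusters (horizontal axis), 1 bar per cluster, cluster 2 in red and cluster 16 in orange. Hs3st4, Zfpm2, Tle4 and Garnl3 are highest in cluster 2, Foxp2 is higher in cluster 6 and Col12a1 in cluster 15.

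On mm10, Hs3st4 lies on chromosome 7 at 123982869 to 124398989 (plus strand), Zfpm2 on chromosome 15 at 40655035 to 41104592 (plus) and Tle4 on chromosome 19 at 14448150 to 14598051 (minus). Garnl3 lies on chromosome 2 at 32986224 to 33131654 (minus), Foxp2 on chromosome 6 at 14901349 to 15441977 (plus) and Col12a1 on chromosome 9 at 79598991 to 79718831 (minus). All 6 are protein-coding genes of GENCODE M21. The promoter sequences of Hs3st4 and Tle4, which cluster 2 shared with cluster 16, and of Col5a1, which was lower in every other cluster, are given to set these cases side by side, as the 250 bases before their RefSeq starts (GRCm38.p6, 5′ to 3′ on the gene's strand). They lie at chr7:123982578-123982827 (plus), chr19:14598184-14598433 (minus) and chr2:27886175-27886424 (plus), and capitals mark the E-box.
Hs3st4: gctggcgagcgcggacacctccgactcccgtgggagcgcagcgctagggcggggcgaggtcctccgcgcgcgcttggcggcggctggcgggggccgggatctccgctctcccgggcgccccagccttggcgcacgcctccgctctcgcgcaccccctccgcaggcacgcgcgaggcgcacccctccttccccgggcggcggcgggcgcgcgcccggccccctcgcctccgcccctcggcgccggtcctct
Tle4: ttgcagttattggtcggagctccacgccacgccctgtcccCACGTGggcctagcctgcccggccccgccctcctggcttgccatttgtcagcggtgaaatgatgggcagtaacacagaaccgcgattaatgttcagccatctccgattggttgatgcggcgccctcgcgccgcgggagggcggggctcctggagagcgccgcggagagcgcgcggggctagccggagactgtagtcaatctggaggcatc
Col5a1: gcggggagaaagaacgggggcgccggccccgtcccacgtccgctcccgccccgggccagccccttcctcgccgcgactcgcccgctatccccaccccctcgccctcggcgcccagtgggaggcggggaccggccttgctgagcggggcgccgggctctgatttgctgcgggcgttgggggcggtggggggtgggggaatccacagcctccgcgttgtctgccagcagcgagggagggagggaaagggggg

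The E-box CACGTG is the sequence that clock activators of the NPAS2 and BMAL1 type bind. Among the windows of the 25 genes with the largest ratios, described below and including the 6 markers, it was found in the outer window of Tle4, 210 bases before the start, and in no other. RefSeq windows were found for 3 of the 6 markers and for 15 of the 25 leading genes, 22 windows in all, of which 4.55% held an E-box. Of all 32851 RefSeq windows of the same length, 6.02% did. A T-box sequence, GGTGTGA, and a forkhead sequence, TGTTTAC, both searched on both strands, were in none of these 22 windows and in 3.33% and 3.17% of all windows. The E-box reads the same on both strands and overlapped no other match. These counts are descriptions of letters in a short window.

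Against all other nuclei together, cluster 2 had 237 genes at 2-fold or more above the rest (2.06% of the 11514 compared) and 917 at 2-fold or more below (7.96%). The median log2 ratio over all genes compared was -0.06. Of the 237, 42 reached 4-fold and 9 reached 8-fold. The lower side reached further, with 451 genes at least 4-fold and 196 at least 8-fold lower. Cluster 2 itself was the highest of all clusters for 63 of the 237 genes, cluster 21 for 43, cluster 16 for 34 and cluster 15 for 19. Part of what set cluster 2 apart from the whole tissue was therefore shared with these clusters. Of the 237, 163 were within 2-fold of cluster 16, 63 at least 2-fold above it and 8 at least 2-fold below. Of all 11025 genes compared with cluster 16, 4.44% were 2-fold or more above it and 4.51% below. Over all genes with a mean of at least 0.05, 110 of 11747 had their highest value in cluster 2 (0.936%). Without the small clusters 21 and 22, of 37 and 20 nuclei, that count was 163.

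The 25 named genes with the largest ratios included all 6 markers. The leading gene was Col5a1 (chromosome 2, 27886425 to 28039514, plus strand), a fibrillar collagen chain, at 0.525 (0.452 to 0.607) in cluster 2. The other clusters ran from 0 through a median of 0.0265 to 0.195 in cluster 21, with 0.0824 in cluster 16. Among genes with a mean over all nuclei of at least 0.05, it was the 1 gene at least 2-fold above every other cluster.

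Other extracellular and adhesion genes followed. Col23a1, a transmembrane collagen, was at 0.935 (0.836 to 1.04) against 0.188 over the other clusters. Podn, a leucine-rich proteoglycan, was at 0.159 against 0.0168, and Itga7, the integrin alpha 7 subunit, at 0.273 against 0.0393. Cluster 2 had the highest Podn of all clusters, whereas cluster 20 was higher for Itga7 (0.81) and cluster 21 for Col23a1 (0.958). Dpp4, a cell-surface dipeptidyl peptidase, was at 0.345 (0.287 to 0.412) against 0.0490, and Prss35, a serine protease-like protein, at 0.320 against 0.0631. Nrp1, the neuropilin that binds class 3 semaphorins, was at 2.52 (2.36 to 2.70) against 0.520 and was the highest of all clusters, just above the 2.37 of cluster 15.

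Several leading genes belong to signalling. Trabd2b, a membrane protease that cleaves Wnt proteins, was at 1.19 (1.08 to 1.31) against 0.148, and 5.97-fold (3.70 to 10.3) over cluster 16. Alkal1, a ligand of the receptor kinases ALK and LTK, was at 0.207 (0.162 to 0.261) against 0.0241 and stood higher still in cluster 16 at 0.270. Arhgap25, a GTPase-activating protein, was at 0.750 (0.662 to 0.846) against 0.0769, with the highest value of 1.32 in cluster 18. Sla, a Src-like adaptor, was at 0.208 against 0.0349 and also highest in cluster 18 (0.763), the cluster with the highest summed microglia genes. Rprm, which encodes the cell cycle regulator reprimo, was at 0.530 (0.456 to 0.612) against 0.0927 and was highest in cluster 2. Unlike most of the layer 6 genes it was low in cluster 16, at 0.0684, a fold of 7.75 (3.49 to 21.5). Serinc2 was at 0.525 against 0.0903 and Rell1 at 0.813 against 0.141. Trpv6, a calcium-permeable channel, was at 0.238 (0.190 to 0.295) against 0.0371, and Tg, the thyroglobulin gene, at 0.172 (0.131 to 0.221) against 0.0298.

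Of the 25 leading genes, 9 were highest in cluster 2 and 8 were at least 2-fold over cluster 16. Among all 23 clusters, cluster 2 included, cluster 21 was in the highest 3 for 20 of them, cluster 15 for 9 and cluster 16 for 5.

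**Figure D2:**
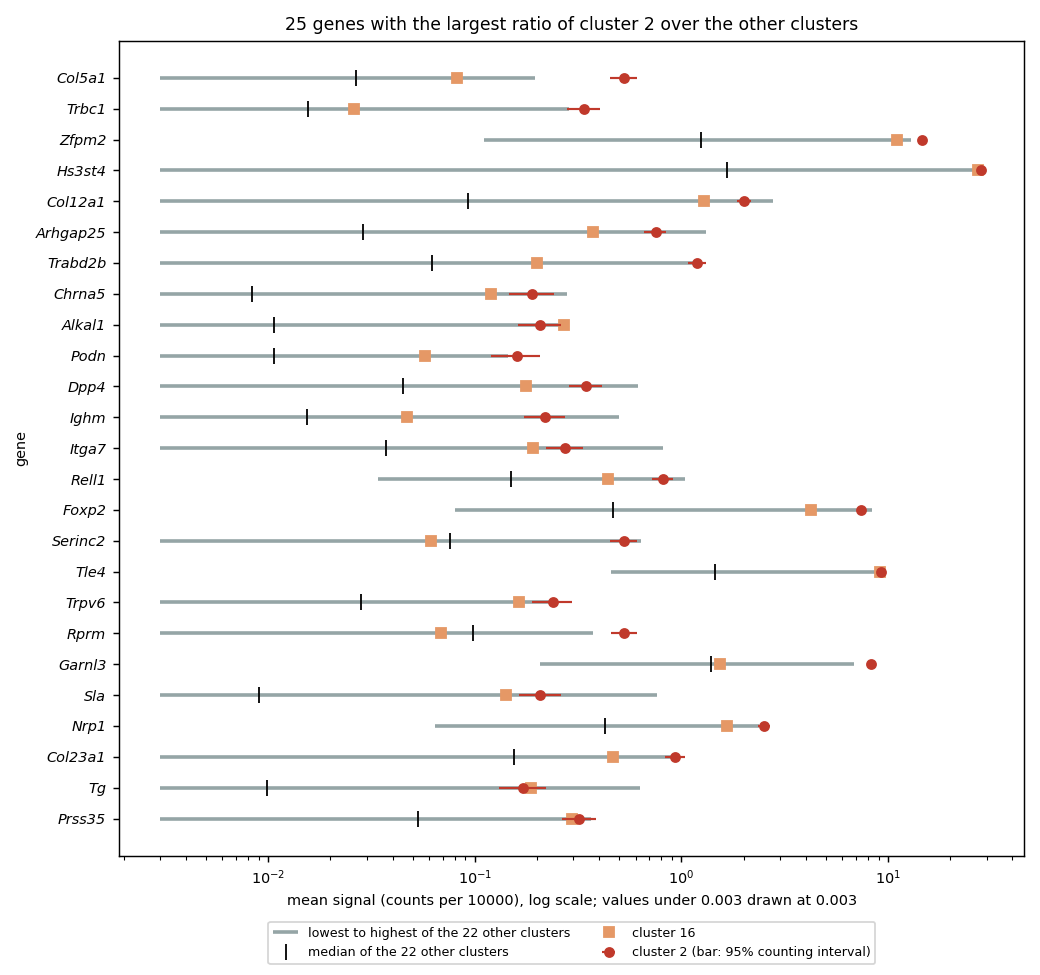
Mean signal in counts per 10000 (horizontal axis, log scale) of the 25 genes (vertical axis) with the largest ratio of cluster 2 over the other clusters. Red points are cluster 2 with 95% counting intervals, orange squares cluster 16, grey lines the span of the 22 other clusters and black ticks their median. Col5a1, Zfpm2, Rprm and Garnl3 lie to the right of the span, while Sla, Tg and Itga7 lie well inside it.

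Among genes with a mean of at least 0.02 over the libraries, 1 had at least 80% of its signal in cluster 2. At any level 132 genes did, of which 121 were listed in cluster 2 alone. Gm10635 (chromosome 9, 79444037 to 79519302, minus strand), annotated as a long intergenic non-coding RNA, held 82.2% of its signal there. Its level was 1.51 (1.38 to 1.64) in cluster 2 and 1.73 in cluster 21, and at most 0.102 in any other cluster. Cluster 16 was at 0.0915, so the non-coding RNA separated the layer 6 clusters more widely than any of the 6 markers did. It lies 79689 bases from Col12a1 on the same strand. Col12a1 differed less between them, at 1.56-fold (1.28 to 1.92) over cluster 16.

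The named genes with the lowest ratios began with Fam19a1, which encodes a small secreted protein, at 0.221 (0.174 to 0.276) in cluster 2 against 9.72 in the other clusters, with 30.7 in cluster 5. Erbb4, the neuregulin receptor of many interneurons, was at 0.366 against 15.7, with 131 in cluster 9. Npas3, a transcription factor of the same family as Npas2, was at 0.0691 (0.0444 to 0.103) and lower than in any other cluster, where it ran from 0.138 to 22. Sox6 was at 0.0201 against 0.996, St18 at 0.0298 against 1.43 and Dlx6os1 at 0.0270 against 0.961. Of these, St18 was also lowest in cluster 2 among all clusters. Pdzrn3, a ubiquitin ligase, was at 0.0704 against 2.26 and peaked in cluster 0, an excitatory-like cluster, at 5.49. Ptprm, a receptor-type phosphatase, was at 0.0569 against 2.21. Ankfn1 was at 0.00682 against 0.524 and Sntg2, a syntrophin, at 0.0131 against 0.574. Of the 917 genes, 132 were highest in 1 of the 7 other clusters taken as excitatory-like (0, 1, 5, 7, 15, 16 and 20). Against the plain mean of those 7, 155 of 11176 genes lay 2-fold or more above (1.39%) and 509 lay 2-fold or more below (4.55%).

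By likeness over 11747 genes, the log2 profile of cluster 2 had a Pearson correlation of 0.934 with cluster 7, 0.929 with cluster 16 and 0.919 with cluster 0. These correlations are descriptions across genes, which share the libraries and the depth of each cluster. Cluster 7 also had the fewest genes at least 2-fold apart, 7.73% of those compared, against 8.94% for cluster 16. By these values cluster 7, with 648 nuclei, was slightly nearer over all genes than cluster 16, with 241. The part of the number of nuclei in this small gap was not tested.

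Lists of layer genes were counted next. List counts against the other clusters, here and below, stand beside the shares over all genes, 2.06% higher and 7.96% lower. Of 24 layer 6 corticothalamic genes, 15 were at least 2-fold higher than in the other clusters, 2 lower and 4 within 2-fold, and 3 were below the floor. Their median log2 ratio was 1.49, against -0.06 over all genes. The list holds 4 of the markers that name the cluster (Hs3st4, Zfpm2, Foxp2 and Tle4), and without them 11 of 17 genes above the floor were higher, with a median of 1.29. Cluster 2 was not the highest for this list, since its summed signal was 109.9 there, 130.3 in cluster 16, 102.9 in cluster 21 and 86.2 in cluster 15. Against cluster 16, 5 members were higher and 3 lower. Apart from genes already given, Thsd7b, a thrombospondin-domain protein, was at 5.25 (5.01 to 5.49) against 1.17, and Cdh18, a cadherin, at 19.9 (19.4 to 20.3) against 6.00. Crym, the thyroid hormone-binding protein mu-crystallin, was at 0.546 (0.471 to 0.629) against 0.217. Syt6, a synaptotagmin, was at 1.37 (1.25 to 1.49) against 0.481 and 2.46-fold (1.83 to 3.38) over cluster 16. Both lower members, Kcnab1 and Vwc2l, were high in cluster 16. The neurotensin receptor gene Ntsr1, named after its values were seen because it is a common driver-line marker of these neurons, was below the floor at 0.0783. Its highest value was 0.130, in cluster 16.

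Genes of other layers were mostly low. Of 11 layer 2-3 genes 9 were at least 2-fold lower and none higher, among them Cux2, a homeobox factor of upper layers, at 0.0318 (0.0160 to 0.0567) against 0.654. Of 9 layer 4-5 intratelencephalic genes, 8 were above the floor, 5 lower and none higher, with Rorb, a nuclear receptor of layer 4, at 0.319 against 2.59. Of 10 near-projecting genes, 8 were above the floor, 5 lower and none higher, with Tshz2 at 0.145 against 0.980 and 28.2 in cluster 15. The layer 6 intratelencephalic and claustrum-type list had 8 of 13 genes above the floor, of which 4 were lower and none higher. The layer 5 extratelencephalic list, with 8 of 12 genes above the floor, was mixed. Of the 8, 2 were higher, Crym and Fezf2, and 2 lower, Vat1l and Bcl6. Fezf2, a zinc finger factor of subcerebral neurons, was at 0.239 (0.191 to 0.296) against 0.101. With columns rescaled without Malat1 and mitochondrially encoded genes, the lower counts of the claustrum-type and layer 5 lists became 6 and 3.

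**Figure D3:**
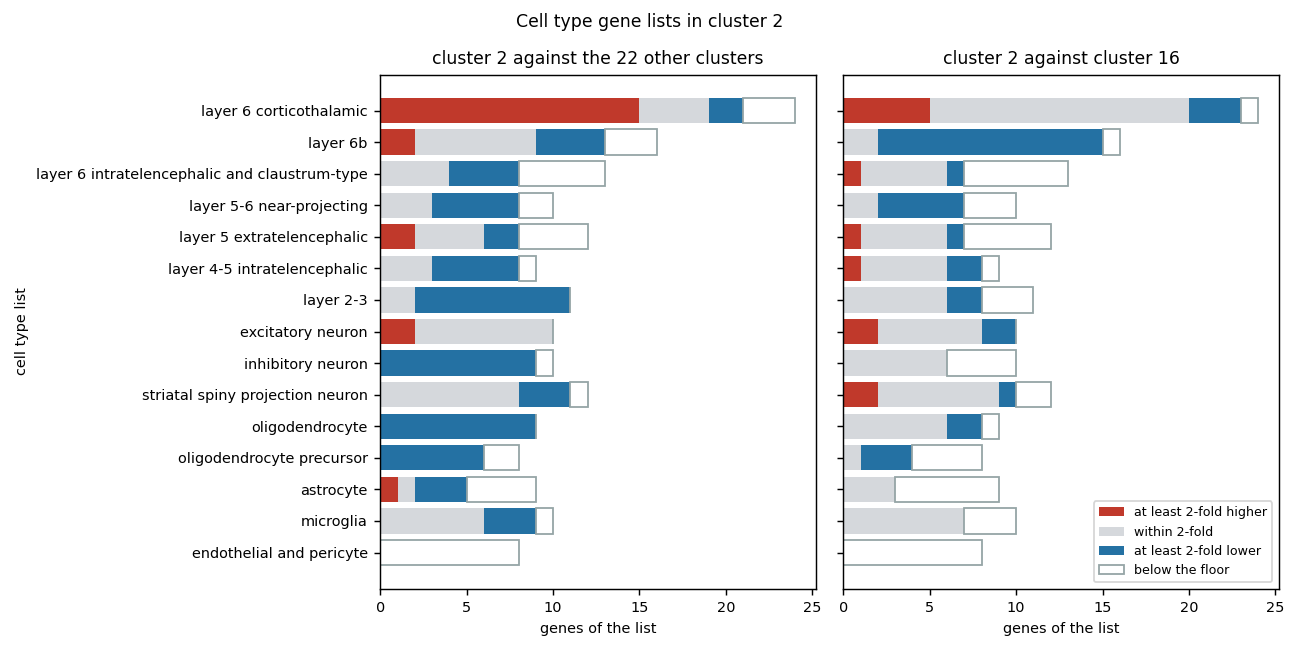
Number of genes (horizontal axis) of each cell type list (vertical axis) that were at least 2-fold higher, within 2-fold, at least 2-fold lower or below the floor in cluster 2, against the 22 other clusters (left) and against cluster 16 (right). The layer 6 corticothalamic list has 15 higher genes on the left, and the layer 6b list has 13 lower genes on the right.

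Cluster 16, with 241 nuclei, had the highest summed layer 6 corticothalamic genes of all clusters, with Cdh18 (38.9) as the largest part of that sum. Between cluster 2 and cluster 16, 489 of 11025 genes had 2-fold or more in favour of cluster 2 (4.44%) and 497 in favour of cluster 16 (4.51%), and the median log2 ratio was -0.00. In cluster 16 a signal of 0.0286 corresponds to 3 UMIs. Of the 237 genes higher than in all other nuclei, 63 were also at least 2-fold over cluster 16.

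The clearest division was in layer 6b genes. Of 16 such genes, 15 were above the floor, and 13 of them were at least 2-fold lower in cluster 2 than in cluster 16, none higher. Their median log2 ratio was -1.74. Ctgf, a secreted matrix protein and standard layer 6b marker, was at 0.157 (0.118 to 0.204) in cluster 2 and 3.43 in cluster 16, 21.9-fold (16.4 to 29.8). Cplx3, a complexin, was listed at 0 in cluster 2 and at 0.135 in cluster 16, at least 18.9-fold higher against the floor of 3 UMIs. Svil, the actin-binding supervillin, was at 0.0714 against 1.79, and Tmem163, a zinc transporter, at 0.0571 against 2.14. Inpp4b, a phosphoinositide phosphatase with a higher level, was at 2.37 (2.21 to 2.53) against 7.95. Moxd1 was at 0.0107 against 0.311 and Nxph4, a neurexophilin, at 0.0149 against 0.249. Drd1, the dopamine D1 receptor, was at 0.204 (0.160 to 0.258) against 0.510, and Hcrtr2, the orexin receptor 2, at 0.272 (0.220 to 0.333) against 0.635.

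Beyond that list, the genes lowest against cluster 16 included Fbxl7, an F-box protein, at 0.0774 (0.0511 to 0.113) against 4.06, 52.4-fold (35.4 to 80.5). Kirrel3, an adhesion molecule, was at 0.310 (0.255 to 0.374) against 8.23, and Kcnab1, an auxiliary subunit of potassium channels, at 0.263 (0.212 to 0.323) against 7.20. Both were lower in cluster 2 than in any other cluster. Adgrg6, an adhesion G protein-coupled receptor, was at 0.0182 against 0.699. Ror1, a receptor kinase-like protein, was at 0.00216, under the signal of 3 UMIs, against 0.275. Olfr111, an olfactory receptor gene on chromosome 17, was at 0.00339 against 1.94, and highest in cluster 17 at 4.13. Its level in cluster 2 was under the signal of 3 UMIs, and reads of neighbouring family members may be shared between them.

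Other genes were higher in cluster 2 than in cluster 16. Kctd16 and Kctd8 encode auxiliary subunits of GABA-B receptors, whose own genes Gabbr1 and Gabbr2, named after their values were seen, were within 2-fold between these clusters. Kctd16 was at 7.93 (7.64 to 8.23) in cluster 2 and 0.457 in cluster 16, 17.3-fold (12.7 to 24.3). Kctd8 was at 0.824 (0.732 to 0.925) against 0.0276, 29.9-fold (9.06 to 189). Cluster 2 ranked 9 of the 23 clusters for both, and cluster 16 was the lowest for Kctd16. Iqgap2, a scaffold protein, was at 1.13 (1.03 to 1.25) against 0.0192, 59.2-fold (14.7 to 665). Epha6, an ephrin receptor, was at 3.26 (3.08 to 3.46) against 0.237, and cluster 16 was the lowest cluster for it. Blnk, a B-cell linker adaptor that was highest in cluster 18, was at 0.231 in cluster 2 and listed at 0 in cluster 16, at least 8.09-fold higher. The complement gene C7 (0.139), Sh3bp4 (0.132), Ddo (0.128), which encodes D-aspartate oxidase, and Mei1 (0.113) were likewise listed at 0 in cluster 16. C7 was highest of all in cluster 2. Eya4, a transcription cofactor, was at 0.277 against 0.0161, and Arhgap10 at 0.908 (0.811 to 1.01) against 0.0777.

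**Figure D4:**
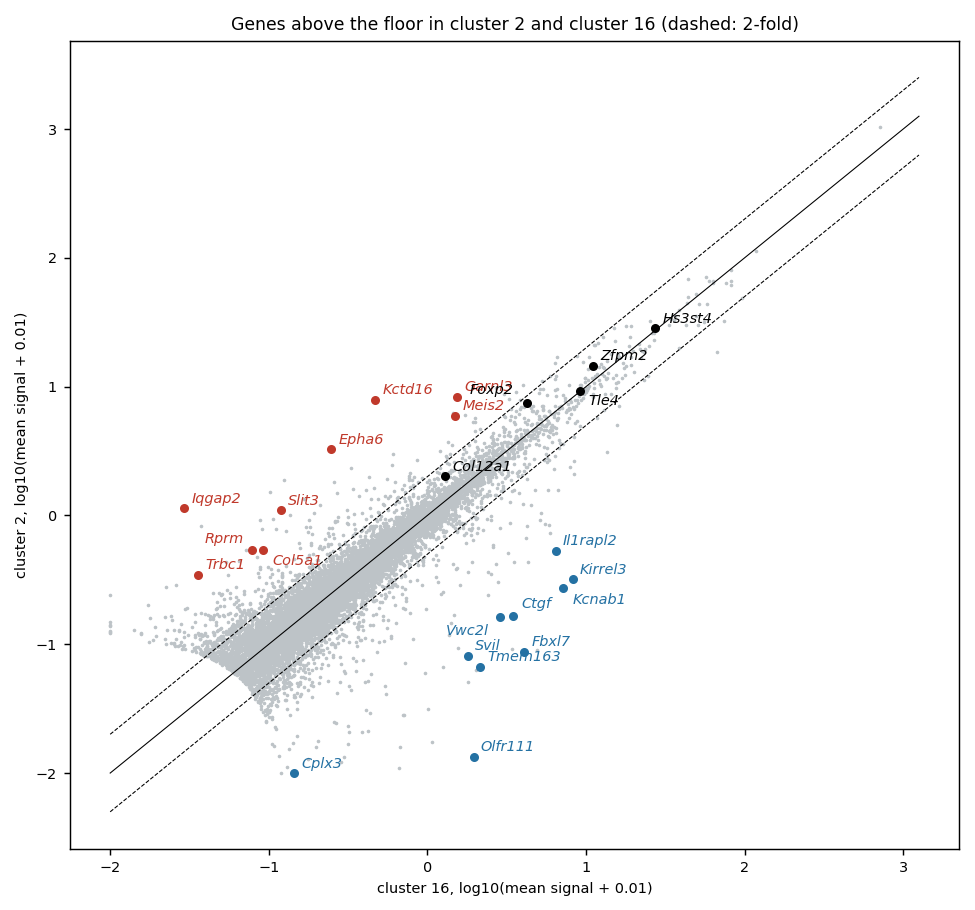
Signal of genes above the floor in cluster 16 (horizontal axis) and cluster 2 (vertical axis), as log10 of the mean signal plus 0.01, 1 point per gene, with lines at equality (solid) and at 2-fold (dashed). Marker genes are black, selected genes higher in cluster 2 red and lower blue. Hs3st4 and Tle4 lie on the line of equality, Garnl3 and Kctd16 far above it and Fbxl7, Ctgf and Kirrel3 far below it.

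Transcription factors differed in both directions. Of 30 cortical layer factors, 29 were above the floor, with 4 at least 2-fold higher than in the other clusters (13.8%, marker Zfpm2 included) and 8 lower (27.6%). The higher ones were Zfpm2, Tbr1, Fezf2 and Nfia, the last named after its values were seen. Tbr1, a T-box factor of deep-layer and corticothalamic identity, was at 0.355 (0.295 to 0.423) against 0.122, with 0.201 in cluster 16. Nfib, at 6.75 (6.48 to 7.03) against 3.38, lay just under 2-fold. Zfhx4 was at 0.0423 against 0.697 and Etv1 at 0.483 (0.413 to 0.562) against 1.31. Of 14 Fox and TLE genes, 2 were higher, Foxp2 and Tle4, both of them markers that name the cluster. Of the 11 others above the floor, none was higher and 3 were lower. Tle1 was at 0.0633 (0.0398 to 0.0956) against 0.404, Tle2 at 0.163 against 0.413 and Foxo1 at 0.0137 against 0.216. Foxp1 was within 2-fold of the other clusters at 3.01 (2.83 to 3.20) against 2.59, but 2.18-fold (1.81 to 2.66) over cluster 16.

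Receptors for transmitters and modulators were compared list by list, again beside 2.06% higher and 7.96% lower over all genes. Htr1f, the serotonin 1F receptor, was at 7.13 (6.85 to 7.42) in cluster 2 and 2.70 in the others, with a median of 2.15 and a highest value of 6.14 in cluster 10. It was highest in cluster 2 and the 1 of 13 serotonin receptors, 6 of them above the floor, that was at least 2-fold higher. Htr2c was at 0.145 (0.108 to 0.191) against 1.65, Htr2a at 0.0620 (0.0387 to 0.0941) against 0.4 and Htr4 at 0.0503 against 0.203. Cluster 2 thus had high Htr1f with low Htr2a and Htr2c, and Htr2a was higher in cluster 16, at 0.718. High Htr1f and low Htr2c were shared with cluster 16, at 5.35 and 0.103.

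Oprm1, the mu-opioid receptor, was at 5.03 (4.79 to 5.27) against 1.86, close to the 4.51 of cluster 16 and below the 5.54 of cluster 21. Among 14 acetylcholine receptor genes, Chrna5 and Chrna4 were higher and Chrm2 lower, and 7 were below the floor. Chrna5, an accessory nicotinic subunit, was at 0.189 (0.147 to 0.241) against 0.0209, with 0.279 in cluster 15. Chrna4 was at 0.104 (0.0730 to 0.144) against 0.0346 and highest in cluster 2. Chrm2, the muscarinic M2 receptor, was at 0.343 (0.284 to 0.410) against 1.25 and 2.52 in cluster 16. Adora1, the adenosine A1 receptor, was at 0.335 (0.277 to 0.401) against 0.128, with 0.371 in cluster 16. Hcrtr2, given above, was at 0.127 in the other clusters and so at least 2-fold higher in cluster 2. Hrh2, a histamine receptor, was lower, at 0.0114 against 0.0945.

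Kainate receptor subunit genes differed in both directions. Grik3 was at 2.56 (2.39 to 2.73) against 0.627 and Grik4 at 1.97 (1.82 to 2.12) against 0.678. Both stood higher in cluster 16, at 2.91 and 2.20. Grik1, by contrast, was at 0.0528 (0.0315 to 0.0829) against 2.27, the lowest of all clusters, and was also low in cluster 16 at 0.123. The AMPA subunit gene Gria4 was lower, at 6.25 against 12.9, while Gria2 and Gria3 were within 2-fold. Grin3a, an NMDA receptor subunit, was at 0.0682 (0.0437 to 0.102) against 0.887, and Grin1, Grin2a and Grin2b were within 2-fold. Grm8, a presynaptic metabotropic glutamate receptor, was at 10.2 (9.90 to 10.6) against 4.64 and second to cluster 17 among all clusters. Of 15 GABA receptor genes, 14 were above the floor, none was higher and 2 were lower (14.3%). These were Gabrg1 and Gabra2, the latter at 1.05 (0.949 to 1.17) against 3.23. Of 9 adrenergic receptors, 4 were above the floor and all 4 were within 2-fold of the other clusters. Against cluster 16, Adra1a was higher, at 0.468 (0.399 to 0.545) against 0.0744. Of 10 dopamine receptor and signalling genes, 7 were above the floor and none was higher than in the other clusters. Drd2 (0.000974 against 0.103) and Adcy5 (0.192 against 0.408) were lower, 28.6% of the 7. The Drd2 level in cluster 2 was under the signal of 3 UMIs. With ratios centred on the median ratio, the list had 1 lower gene.

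**Figure D5:**
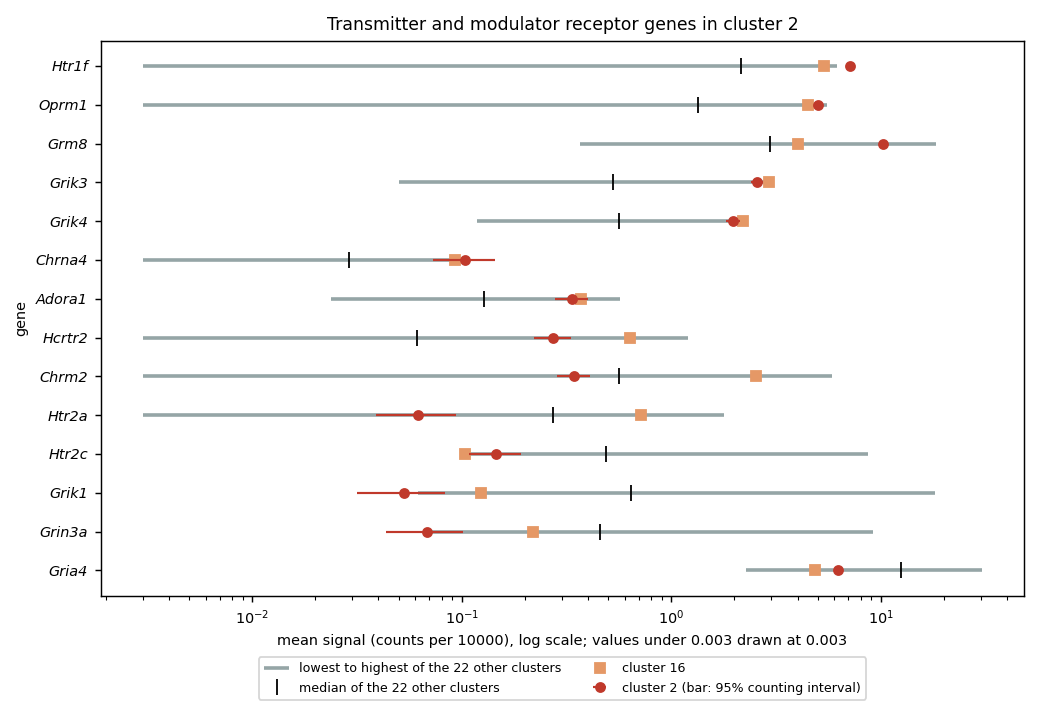
Mean signal in counts per 10000 (horizontal axis, log scale) of 14 receptor genes (vertical axis). Red points are cluster 2 with 95% counting intervals, orange squares cluster 16, grey lines the span of the 22 other clusters and black ticks their median. Htr1f lies to the right of the span and Grik1 to the left of it, and Chrm2 and Htr2a are lower in cluster 2 than in cluster 16.

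Genes of axon guidance differed in both directions. Of 52, 47 were above the floor, 9 at least 2-fold higher (19.1%) and 12 lower (25.5%). The higher members included Nrp1, given above. Unc5d, a netrin receptor, was at 0.158 (0.119 to 0.205) against 4.20, and Unc5c at 0.580 (0.503 to 0.666) against 4.82. Ntng1, a membrane-bound netrin relative, was at 0.196 (0.153 to 0.249) against 3.06. All 3 were lower in cluster 2 than in any other cluster, although Ntng1 was at 0.208 in cluster 16. Dcc, the netrin receptor that pairs with UNC5 proteins, was within 2-fold at 16.9 (16.5 to 17.3) against 10.4. Slit3 was lower than in the other clusters, at 1.08 against 3.14, but 9.97-fold (5.28 to 21.4) over cluster 16. Ntn4 was at 0.00560, under the signal of 3 UMIs, against 0.132.

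Heparan sulfate genes, the family of the lead marker, were also split. Of 25 genes for synthesis and modification, 20 were above the floor and 5 below it. Of the 20, 4 were at least 2-fold higher (20%), the marker Hs3st4 among them, and 4 lower (20%). Beside Hs3st4, Hs3st2, another 3-O-sulfotransferase, was at 2.21 (2.06 to 2.37) against 0.671, and Sulf1, an extracellular 6-O-endosulfatase, at 1.40 (1.28 to 1.53) against 0.315. Both were higher in cluster 16, at 3.77 and 2.36. Hs6st3, a 6-O-sulfotransferase, was at 0.463 (0.395 to 0.540) against 7.34, and no other cluster was under 0.598. Ndst4, an N-deacetylase and N-sulfotransferase, was at 0.0645 against 1.47. Ndst3 was at 1.34 (1.22 to 1.47) against 2.14, within 2-fold, but 8.58-fold (5.03 to 15.9) over cluster 16. Of 13 core proteins that carry such chains, 8 were above the floor, none was higher and 4 were lower (50%). The glypican gene Gpc6 was at 0.284 (0.231 to 0.345) against 6.22, and Gpc5, Gpc4 and Gpc3 were lower as well.

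Over all genes 2.06% were higher and 7.96% lower, and the lists of matrix, adhesion and channel genes are given beside these shares. In the collagen and matrix list of 31, 24 were above the floor, 6 higher (25%, marker Col12a1 included) and 9 lower (37.5%), and Reln, the secreted protein of Cajal-Retzius cells and some interneurons, was at 0.0511 (0.0303 to 0.0809) against 1.03. Of 26 cadherins and protocadherins, 2 were higher (7.69%) and 11 lower (42.3%), with Cdh8 at 0.641 (0.560 to 0.731) against 2.93. Of 42 synaptic adhesion genes above the floor, 1 was higher (2.38%) and 11 lower (26.2%). Among these, Tenm3 was at 1.2 (1.09 to 1.32) against 6.65, Lrrtm4 at 10.2 (9.85 to 10.5) against 36.8 and Cntn6 at 0.497 against 2.47. The abundant Ptprd, at 113 against 72.6, and Nrxn3, at 71.6 against 60.7, were within 2-fold.

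Of 46 potassium channel genes above the floor, 2 were higher (4.35%) and 12 lower (26.1%). The A-type channel auxiliary subunit gene Kcnip4 was at 18.7 (18.2 to 19.2) against 72.8 and 67.3 in cluster 16. Its relative Kcnip1 was at 0.0145 (0.00477 to 0.0336) against 0.929. Kcnb2 was at 2.38 against 13.2 and Kcnc2, a fast delayed rectifier of interneurons, at 0.6 against 5.10. Kcnh7, an ERG-type channel, was at 28.8 (28.2 to 29.3), within 2-fold of the others and level with cluster 5, the highest. Of 26 sodium, calcium and HCN channel genes above the floor, none was higher and 5 were lower (19.2%). Cacna2d3, an alpha-2-delta subunit, was at 0.294 (0.240 to 0.356) against 5.42 and lowest of all clusters. Cacna1g and Cacna1h, T-type calcium channels, were at 0.123 and 0.0455 against 0.389 and 0.148.

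Of 17 peptide ligands above the floor, none was higher, 10 were within 2-fold and 7 were lower, against 7.96% lower over all genes, among them Bdnf, a neurotrophin, at 0.122 (0.0886 to 0.165) against 0.297. Of 15 peptide receptors above the floor, 1 was higher, Oprm1, 8 were within 2-fold and 6 lower, with a median log2 ratio of -0.39. The summed receptor signal was 7.34 in cluster 2 against 4.78 in the others. Oprm1 alone gave 5.03 and 1.86 of these sums. The lower ones included Crhr1, the corticotropin-releasing hormone receptor, at 0.0182 against 0.152. With columns rescaled without Malat1 and mitochondrially encoded genes, 3 receptors were higher.

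Npas2 was at 1.14 (1.03 to 1.26) in cluster 2, 1.37 over the other clusters and 1.78 in cluster 16, rank 12 of 23. Its partners Arntl, at 0.929 (0.831 to 1.04) against 0.812, and Clock, at 1.09 (0.980 to 1.2) against 1.02, were also within 2-fold. Of 20 clock genes above the floor, none was higher and 2 were lower (10%), near the 2.06% and 7.96% of all genes. The lower ones were Rorb and the repressor gene Bhlhe40 (0.0485 against 0.160). Against cluster 16, 5 of 21 were higher (23.8%) and 2 lower (9.52%), beside 4.44% and 4.51% of all genes. The higher ones included Per2, at 0.236 (0.188 to 0.293) against 0.0407, Per3, at 1.01 (0.909 to 1.12) against 0.333, and Arntl, at 2.33-fold (1.64 to 3.41). Of 19 activity-regulated genes, 16 were above the floor. Against the other clusters none was higher and 1, Egr4, was lower (6.25%, beside 7.96% of all genes). Against cluster 16, 3 of 16 above the floor were higher (18.8%) and 1 lower (6.25%). Arc, a synaptic immediate early gene, was at 0.25 (0.2 to 0.308) against 0.120, a log2 ratio just under 1, and 3.47-fold (1.56 to 9.44) over cluster 16.

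Genes of other cell types were counted as well. Striatal spiny projection neuron genes summed to 17.5 in cluster 2, rank 6 of the 23 clusters, with 7.61 to 83.98 in the others, and of 11 above the floor 3 were lower and 8 within 2-fold. That list includes genes that cortical neurons also express. All 9 oligodendrocyte genes were at least 2-fold lower than in the other clusters, and their summed signal was 1.22 in cluster 2 and from 1.07 to 113 in the others. Of 10 inhibitory neuron genes, 9 were above the floor and all 9 were lower, with a sum of 1.98 against 1.22 to 223 in the others. Astrocyte genes summed to 4.86 in cluster 2 and from 0.997 to 134 in the others, and Slc1a2, a glutamate transporter gene also known from neurons, gave 4.47 of the 4.86. Microglia genes summed to 1.94, with 1.58 to 59.99 in the others, and 3 of 10 were lower. Arhgap25, Sla, Tg and Blnk, described above, were highest in cluster 18, where that sum was 59.99. The part of such cells in these results was not tested. Oligodendrocyte precursor genes summed to 1.76, with 1.15 to 87.3 in the others, and 1 of 8, Cspg4, was at 0. Endothelial and pericyte genes summed to 0.0517, all 8 were below the floor, and Slco1a4 and Rgs5 were at 0. Against these, the excitatory neuron list had all 10 members above the floor and 2 higher, Neurod2 and Tbr1. Neurod2 was at 0.437 (0.370 to 0.511) against 0.142 and highest in cluster 2.

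The share of cluster 2 in each library was estimated from rare genes whose signal equals 1 UMI in 1 nucleus. Of 703 such UMIs in cluster 2, 379 came from the library labelled knockout, 53.9% (50.1 to 57.6, Clopper-Pearson). Weighted for depth, 59.2% of the cluster's nuclei came from that library, which itself held 56.2% of all nuclei. Cluster 2 was thus an estimated 9.78% of the library labelled knockout, against 8.67% of the library labelled wild-type. Genes listed in cluster 2 alone gave a share of 54.7% from 110 values, so the order of the libraries turned with the estimator, at 9.05% and 9.61%. By the first estimate its nuclei had a mean depth of 3234 UMIs under the knockout label and 4004 UMIs under the wild-type label.

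The table gives no expression of cluster 2 per library, but a gene held by the cluster carries its signal into the library means. For Gm10635 the library labelled knockout had a signal of 0.163 and the library labelled wild-type one of 0.179. The first over the second was 0.910 (0.777 to 1.07). The numbers of nuclei alone would give 1.13 by the first estimate and 0.941 by genes listed in cluster 2 alone. Given the part of its signal in other clusters, the ratio within cluster 2 could lie between 0.540 and 1.31 by the first estimate and between 0.647 and 1.57 by the second, so its direction could not be told. With 1 library per genotype, a difference between genotypes and one between libraries cannot be told apart.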

How the data were processed

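Single nuclei of 2 pooled libraries were profiled with 10x 3′ chemistry, per the labels' protocols. The genome build was mm10, per the submitters' processing notes. Details of the aligner, nucleus filters, doublets and clustering: not given in the sources used here. For 31053 genes, the deposited table holds the authors' mean signal per cluster and per library, and every column sums to 10000. It holds no counts, so UMI numbers, depths and numbers of nuclei were estimated. Numbers of nuclei came out whole within 1e-06. Genes seen in at most 10 clusters (7339 tried, 4155 divided in a single way within 0.0001) gave 9338 values of 1 UMI. Exact 95% intervals rest on these estimates. Of the gene IDs, 30902 matched GENCODE M21 and 36 rows had none.

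Log2 ratios used a pseudocount of 0.01, genes needed a mean of at least 0.05 over both sides, and calls needed 2-fold. No test was run, since each genotype has 1 library. The members and gene lists were chosen with earlier results of these data known. Genes were named by a rule: the 6 markers, Npas2, the 25 genes with assigned names highest and the 12 lowest against the other clusters, the 12 highest and 12 lowest against cluster 16, up to 6 differing and 3 abundant members per list, and genes with at least 80% of their signal in cluster 2 and a library mean of at least 0.02. Promoters are RefSeq's (GRCm38.p6). Tested on simulated data, the comparison with the other clusters (31053 genes) called 100 of 100 genes 4-fold higher, 100 of 100 4-fold lower and 0 of 200 equal ones, and estimated a library share of 54.74% where 59.12% was simulated, from 210 UMIs. Alternatives were other pseudocounts, floors, fold limits, comparators and scalings. Python 3.11.15, numpy 2.4.6, scipy 1.17.1, pandas 2.3.3 and matplotlib 3.10.9 were used.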

Additional observations from a re-analysis of the deposited data

How the results depend on the processing

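Counts of genes moved with the settings. Of the 237 genes higher than in the other clusters, a pseudocount of 0.1 left a count of 127, a floor of 0.2 gave 140, 1.5-fold 673, 4-fold 42, the median of the other clusters as comparator 456 and the mean of the other excitatory-like clusters 155. The 917 lower became 551, 370, 1523, 451, 428 and 509 in the same order, and 1876 with no floor. The 489 higher than in cluster 16 became 183 with a pseudocount of 0.1, 1493 with no floor, 176 with a floor of 0.2, 1277 at 1.5-fold and 95 at 4-fold. The 497 lower became 195, 1310, 208, 1278 and 113 in the same order. The 110 genes highest in cluster 2 became 407 with no floor and 1 when 2-fold over the next cluster was required. They became 163 without clusters 21 and 22, and 163 as well with only clusters of at least 50 nuclei. The share of nuclei from the library labelled knockout, 59.2%, was 54.7% from genes listed in cluster 2 alone and 59.2% by the least-squares fit. Among genes with a library mean of at least 0.02, none held 90% of its signal in cluster 2 (122 did at any level), so that limit gave no library ratio. Rescaling without Malat1 and mitochondrially encoded genes, centring on the median ratio and a pseudocount of 0.001 kept all 4 of the 2-fold counts within 1.5 times. So did leaving out clusters 21 and 22, chosen after seeing the data, for the counts it bears on. The cause of these shifts was not tested. No paired analysis was possible because each genotype has 1 library and no test was run. Depth limits cluster 16, where 3 UMIs make a signal of 0.0286, and cluster 21, where they make 0.212.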

Other observations

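Some genes of immune receptors were listed in cluster 2 above the signal of 3 UMIs. Trbc1, a T cell receptor beta constant region gene (chromosome 6, 41538218 to 41539881, plus strand), was at 0.337 in cluster 2. Its near-identical neighbour Trbc2, named after its values were seen, was at 0.240 (0.191 to 0.297) against 0.0489 in the other clusters, and reads may be split between them. Ighm, the immunoglobulin mu constant region gene, was at 0.219. The T and B cell genes Cd3e, Cd3g, Cd3d, Cd8a, Cd79a, Trac and Ighd, also chosen after their values were seen, were all listed at 0 in cluster 2. Igkc, an immunoglobulin light chain gene, was at 0.00208 and Lck, a T cell kinase gene, at 0.00263, both under the signal of 3 UMIs and chosen in the same way. Ptprc, a pan-leukocyte gene, was at 0.0288 there and at 3.05 in cluster 18.

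Cluster 21, with 37 nuclei, had layer 6 genes close to those of cluster 2 together with oligodendrocyte genes. Its 6 markers summed to 61.8 against 69.9 in cluster 2, and its oligodendrocyte genes to 22.7 against 1.22. St18, an oligodendrocyte gene, was at 6.59 there and at 0.0298 in cluster 2.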
